A study of Homo sapiens with 8 samples.

Results

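The comparison described here is that of RPL27 siRNA with negative control (NC) siRNA in HCT116 and HT29, established human colorectal cancer cell lines. It uses 4 of the 8 libraries of the series: RPL27 siRNA and NC siRNA in HCT116, and RPL27 siRNA and NC siRNA in HT29. All 4 cultures received 15 nM of siRNA with Lipofectamine 2000, and total RNA was taken after 48 h. Each combination of line and siRNA is 1 library, so the 2 lines are the replicates of the comparison and a single line has no replicate error. In the fits of all 8 libraries, the other 4, of RPL9 and RPL17 siRNA, served only for the spread. The series title names NC and RPL9 siRNA alone, while the sample labels give all 4 siRNAs.

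RPL27 is a protein of the large ribosomal subunit. When such a protein is missing, ribosome assembly stalls, and unassembled RPL5 and RPL11 bind and inhibit MDM2, the ubiquitin ligase that otherwise marks the transcription factor p53 for degradation. p53 then raises genes of cell cycle arrest and death, MDM2 itself among them, and genes of mitosis fall through the DREAM repressor complex. The sample labels do not give the p53 status of either line, and whether p53 acted in HCT116 or HT29 was not tested. ATF4, another transcription factor of interest when protein synthesis is disturbed, drives genes that make and import amino acids.

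Values are RPKM (reads scaled to transcript length and library size) as deposited by the authors, compared between libraries and not between genes because they behave like RPKMs added over exons. A difference is RPL27 siRNA minus NC on the log2(RPKM + 1) scale, which understates the change of genes with low levels. Of 19124 genes, 14281 averaged 1 RPKM or more over the 4 libraries and were tested, and 4843 were not. Rough estimates put these libraries at 21.8 to 24.8 M (mega) reads. The HT29 NC library carries a trend with transcript length: the median HT29 difference was -0.67 in the bin of shortest transcripts and 1.32 in the bin of longest, while the HCT116 medians lay between -0.01 and 0.09. Spearman's rho of the difference with length was 0.52 in HT29 and -0.04 in HCT116 (14181 genes, as a description). The median over all genes was 0.01 in HCT116 and 0.19 in HT29, and -0.06 in HT29 once each library's trend with length was removed. Results are therefore given for each line, and the HT29 value after removal of the trend is given where it matters.

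**Figure D1:**
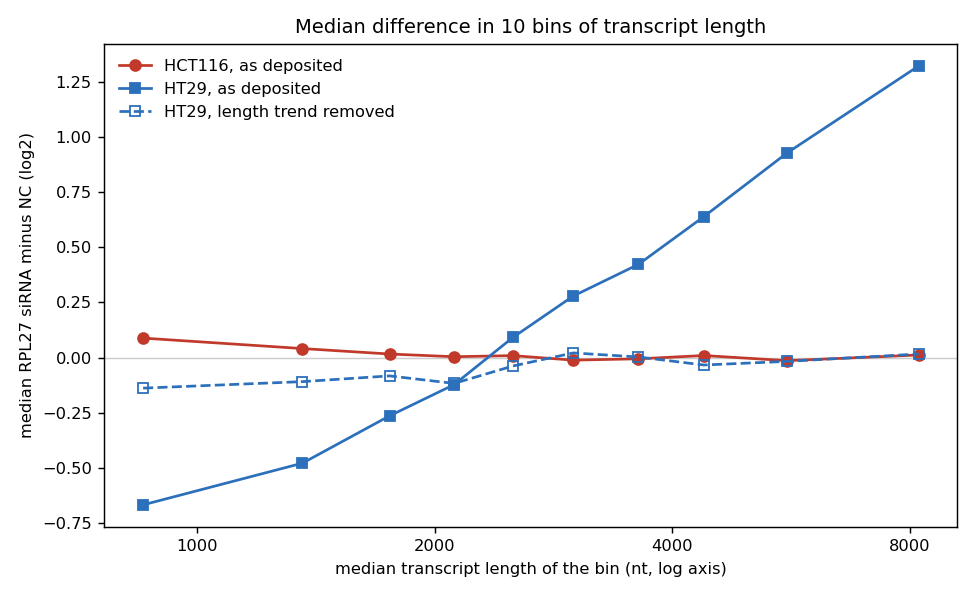
Median difference (RPL27 siRNA minus NC, log2, y axis) of the genes in 10 bins of transcript length (x axis, nucleotides, log axis), for HCT116 and HT29 as deposited and for HT29 with the length trend removed. The HT29 line climbs from -0.67 to 1.32 as deposited and stays between -0.14 and 0.02 after removal, and the HCT116 line stays between -0.01 and 0.09.

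RPL27 (NM_000988, chromosome 17), the targeted gene, checks the labels. It stood at 2045 RPKM with RPL27 siRNA against 7649 RPKM with NC in HCT116, and at 2214 RPKM with RPL27 siRNA against 16205 RPKM with NC in HT29. The RPL27 siRNA libraries of both lines lay below both NC libraries, at 26.7% and 13.7% of NC. The mean difference was -2.39 (SE 0.28, 2 lines; adjusted p = 0.099, limma over all 14281 genes). With the length trend removed it was -2.19 (SE 0.15; adjusted p = 0.012), and RPL27 fell by that test.

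With the values as deposited, limma called 0 genes (0% of those tested) at an adjusted p under 0.05, while the unadjusted p was under 0.05 for 2406. The 3 residual degrees of freedom of that fit come from the 8 libraries. With no threshold on size, 32.2% of the genes tested stood higher in both lines and 23.2% lower in both. By size, 291 genes stood at least 1 log2 unit higher in both lines (2.04%) and 298 at least 1 log2 unit lower in both (2.09%). The split depended on the scaling, with 248 higher and 360 lower after removal of the length trend, 233 and 382 after quantile normalization and 209 and 407 after median-centring. With the length trend removed, limma called 78 genes higher (0.55%) and 149 lower (1.05%). "Rose" and "fell" are used below only for these 227 genes, of which 219 had the same sign in both lines as deposited and 143 passed 1 log2 unit in both. The calls depended on the libraries in the fit: 0 genes were called without any 1 of the 6 RPL siRNA libraries or on the 4 libraries alone. Without 1 of the NC libraries more genes passed. The NC group is then 1 library, and the spread comes from the RPL siRNA libraries alone. Those fits are therefore no support for the 227.

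MDM2, the p53 inhibitor, stood at 3696 RPKM with RPL27 siRNA against 986 with NC in HCT116, and at 2702 RPKM with RPL27 siRNA against 168 with NC in HT29. Its NC libraries lay below its RPL27 siRNA libraries in both lines, 3.75-fold apart in HCT116 and 16.1-fold in HT29. The HT29 difference was 2.47 and the HCT116 difference 1.88 after removal of the length trend; the matched transcript has 12633 nt. MDM2 rose (2.17, SE 0.18; adjusted p = 0.019). MDM4, the relative of MDM2 that also restrains p53, stood 0.57 lower in HCT116 and 2.51 higher in HT29, and PPM1D, a phosphatase that switches p53 signalling off, 0.51 and 1.37 higher, neither past the test. Their HT29 differences were 1.10 and 0.61 with the length trend removed. RPL5 and RPL11 differed by 0.15 and 0.38 in HCT116 and by -0.74 and -0.79 in HT29, or -0.24 and -0.29 in HT29 with the length trend removed.

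CDKN1A, which encodes the cyclin-dependent kinase inhibitor p21, had 1133 RPKM with RPL27 siRNA against 225 RPKM with NC in HCT116, and 864 RPKM with RPL27 siRNA against 198 RPKM with NC in HT29. The groups did not overlap, and the difference was close in both lines, 2.33 in HCT116 and 2.12 in HT29. CDKN1A rose by 2.22 (SE 0.15; adjusted p = 0.012). Of 16 p53 targets of arrest measured, 5 rose (beside 0.55% of all genes) and 0 fell. At least 1 log2 unit higher in both lines stood 6 (beside 2.04% of all genes). The others that rose were BTG2, an antiproliferative gene (1.90), the polo-like kinases PLK2 (1.43) and PLK3 (1.03), and the phosphatase PTP4A1 (1.47). ZMAT3, a zinc finger protein, stood 1.27 higher in HCT116 and 4.59 higher in HT29 without passing (adjusted p = 0.074 with the length trend removed). The list was not uniform: CCNG1 stood lower in both lines (-0.34 and -0.23), GADD45A differed by 0.51 and -0.28, and RPS27L by 1.61 and 0.06. With the length trend removed, the HT29 differences of GADD45A and RPS27L had the other sign, 0.24 and -1.02. The median of the list was 0.94 in HCT116 and 1.12 in HT29, beside 0.01 and 0.19 over all genes.

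FAS, a death receptor, had 383 RPKM with RPL27 siRNA against 118 RPKM with NC in HCT116, and 336 RPKM with RPL27 siRNA against 56.6 RPKM with NC in HT29. Both RPL27 siRNA libraries lay well above both NC libraries, and FAS rose by 2.06 (SE 0.21; adjusted p = 0.024). Of 15 p53 targets of death, 13 stood higher in both lines (beside 32.2% of all genes). Of the 15, 5 did so by at least 1 log2 unit in both (beside 2.04%), and 4 rose (beside 0.55%). Beside FAS these were TNFRSF10B (1.13), a receptor for the death ligand TRAIL, its decoy receptor TNFRSF10D (1.62) and TRIAP1 (1.25), an inhibitor of apoptosis. SUSD6, listed as KIAA0247, stood 2.63 higher in HCT116 and 2.35 higher in HT29 (1.45 with the length trend removed) without passing (adjusted p = 0.061). BAX and BBC3, which act at the mitochondria, stood 1.38 and 1.15 higher in HCT116 but -0.18 and -0.08 in HT29, where BAX had 502 RPKM with RPL27 siRNA against 569 RPKM with NC. Their HT29 differences were 0.19 and 0.06 once the length trend was removed. The median of the list was 1.38 in HCT116 and 0.75 in HT29.

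GDF15, a secreted stress cytokine, had 726 RPKM with RPL27 siRNA against 170 RPKM with NC in HCT116, and 665 RPKM with RPL27 siRNA against 201 RPKM with NC in HT29. It rose by 2.12 (SE 0.22; adjusted p = 0.024). Of 19 measured p53 targets of repair and metabolism, 4 rose (beside 0.55% of all genes) and 0 fell. The other 3 were TIGAR, listed as C12orf5, which lowers glycolytic flux (1.38), the DNA damage sensor XPC (0.99) and CYFIP2, a regulator of actin (1.24). TGFA, a ligand of the EGF receptor, stood 1.23 and 1.90 higher in HCT116 and HT29 (adjusted p = 0.071), while PLTP, a lipid transfer protein, differed by 0.14 and -1.97. Of the list, 12 stood higher in both lines, 2 lower in both and 5 differed in sign. Over all genes 32.2% stood higher in both lines and 23.2% lower. The list had medians of 0.67 and 0.91. These lists were chosen with earlier results of the same libraries known, so their counts are not independent evidence of a direction.

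**Figure D2:**
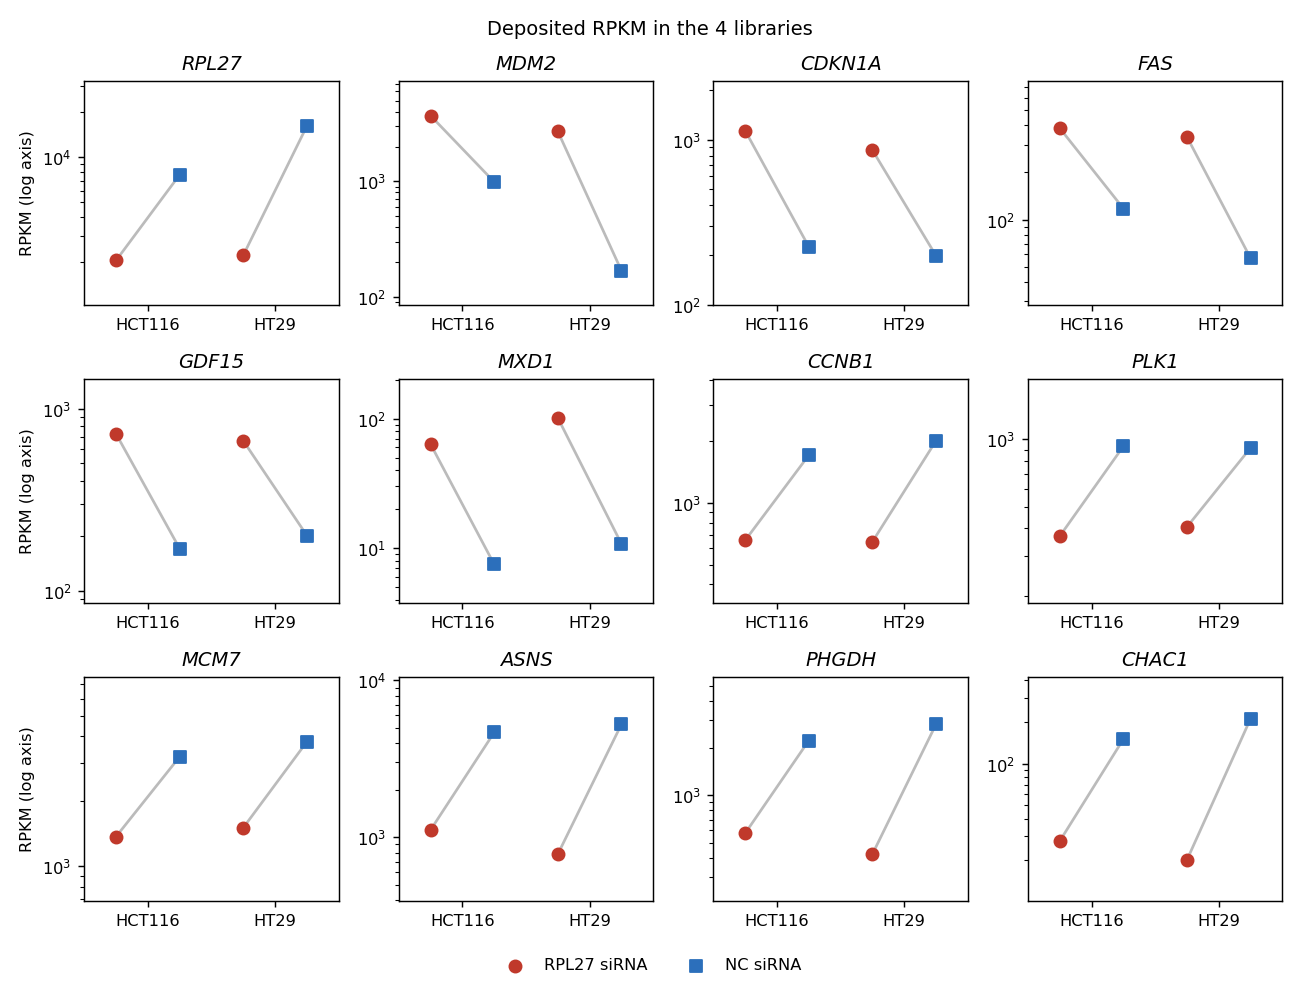
Deposited RPKM (y axis, log axis) of 12 genes in the 4 libraries, with RPL27 siRNA as circles and NC siRNA as squares, joined within each line. RPL27, CCNB1, PLK1, MCM7, ASNS, PHGDH and CHAC1 lie lower with RPL27 siRNA in both lines, and MDM2, CDKN1A, FAS, GDF15 and MXD1 lie higher in both.

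Genes of G2 and mitosis stood lower as a group. All 48 measured members stood lower with RPL27 siRNA in HCT116 and 41 also in HT29 (beside 23.2% of all genes lower in both). Of these, 21 stood at least 1 log2 unit lower in both lines (beside 2.09% of all genes). Of these 48 genes 29 fell and 0 rose, beside 1.05% of all genes that fell. CCNB1, the cyclin that drives entry into mitosis, had 657 RPKM with RPL27 siRNA against 1710 RPKM with NC in HCT116, and 647 RPKM with RPL27 siRNA against 2012 RPKM with NC in HT29, and fell by 1.51 (SE 0.16; adjusted p = 0.026). The groups did not overlap. In bulk RNA, a lower level in each cell and a smaller share of cells in mitosis cannot be told apart.

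PBK, a mitotic kinase, had 418 RPKM with RPL27 siRNA against 1317 RPKM with NC in HCT116, and 272 RPKM with RPL27 siRNA against 1007 RPKM with NC in HT29, and fell by 1.76 (SE 0.19; adjusted p = 0.026). CDCA3 (-1.73), the spindle protein DLGAP5 (-1.62), the kinesin KIF20A (-1.65), AURKB (-1.33), the kinase of the chromosomal passenger complex, and PLK1 (-1.26), the polo-like kinase of mitotic entry, fell as well. CENPF, a kinetochore protein, fell by 1.89 (adjusted p = 0.019), the lowest value among the 29 members that fell. That rank holds with the length trend removed. As deposited its mean difference was -1.17, against -1.78 for CDCA3. The 7 members that differed in sign between the lines as deposited were CENPE, CKAP2, ECT2, KIF11, KIF14, MKI67 and TOP2A. MKI67, the gene of the Ki-67 antigen, had 492 RPKM with RPL27 siRNA against 1518 RPKM with NC in HCT116, but 556 RPKM with RPL27 siRNA against 230 RPKM with NC in HT29. Its HT29 difference of 1.27 became -0.22 with the length trend removed. CENPE and KIF14 were among the members that fell once the trend was removed (adjusted p = 0.035 and 0.042). The medians of the list were -1.35 in HCT116 and -0.92 in HT29, and -1.12 in HT29 with the length trend removed.

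Many promoters of mitotic genes hold a cell cycle homology region, the element TTTGAA to which the DREAM complex binds. That sequence, on either strand, lay in the 250 bases before the start of 20 of the 41 list members found in the promoter table (48.8%), against 12.4% of the tested genes and 16.1% of all genes of the table. Members with and without it had median mean differences of -1.15 and -1.29. The promoters of CCNB2, DLGAP5 and PLK1 are shown because all 3 genes fell, by 1.28, 1.62 and 1.26, and each holds the element. The windows are 100 bases on the strand of the gene, 5′ to 3′, with TTTGAA or its reverse complement TTCAAA in capitals (RefSeq, GRCh38.p14). The CCNB2 window is chr15:59105046-59105145 on the plus strand, the DLGAP5 window chr14:55191674-55191773 on the minus strand and the PLK1 window chr16:23678789-23678888 on the plus strand.
CCNB2: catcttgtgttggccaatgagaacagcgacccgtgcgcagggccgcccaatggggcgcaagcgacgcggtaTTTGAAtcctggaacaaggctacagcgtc
DLGAP5: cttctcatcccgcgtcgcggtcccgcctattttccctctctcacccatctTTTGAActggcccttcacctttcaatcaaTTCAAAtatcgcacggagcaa
PLK1: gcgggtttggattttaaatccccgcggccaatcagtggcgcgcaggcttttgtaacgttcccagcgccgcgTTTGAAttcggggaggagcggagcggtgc
The element begins 29 bases before the start in CCNB2 and in PLK1, and DLGAP5 holds 2 copies, 138 and 109 bases before its start. A match of letters is a description and does not show that the site was bound.

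Genes of DNA replication stood lower as well. MCM7, a subunit of the replicative helicase, had 1369 RPKM with RPL27 siRNA against 3220 RPKM with NC in HCT116, and 1506 RPKM with RPL27 siRNA against 3780 RPKM with NC in HT29, and fell by 1.39 (SE 0.17; adjusted p = 0.027). Of 52 measured members, 42 stood lower in both lines (beside 23.2% of all genes), 14 fell (beside 1.05%) and 0 rose. They included 4 helicase subunits (MCM2, MCM3, MCM6 and MCM7), the primase PRIM1 (-1.15), CDC6 (-1.35), which loads the helicase, the thymidine kinase TK1 (-1.54) and the DNA ligase LIG1 (-1.24). TK1 had 749 RPKM with RPL27 siRNA against 1814 RPKM with NC in HCT116, and 640 RPKM with RPL27 siRNA against 2645 RPKM with NC in HT29. CCNE1, the cyclin of the G1/S transition, was the member that stood higher in both lines (0.30 and 0.12). The medians were -0.91 in HCT116 and -0.66 in HT29. TTTGAA lay in 3 of the 45 promoters of this list found in the table.

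ASNS, the asparagine synthetase, had 1115 RPKM with RPL27 siRNA against 4661 RPKM with NC in HCT116, and 781 RPKM with RPL27 siRNA against 5254 RPKM with NC in HT29. It fell by 2.33 (SE 0.20; adjusted p = 0.019), and its groups did not overlap. Of 37 measured members of the ATF4 and amino acid response, 27 stood lower in both lines and 4 higher in both, beside 23.2% and 32.2% of all genes. Of the list 10 fell, beside 1.05% of all genes, and 0 rose. The enzymes that make serine from a glycolytic intermediate fell together: PHGDH by 2.34, PSAT1 by 1.67 and PSPH by 1.30. PHGDH had 573 RPKM with RPL27 siRNA against 2231 RPKM with NC in HCT116, and 422 RPKM with RPL27 siRNA against 2834 RPKM with NC in HT29. MTHFD2 (-1.18), which passes on the one-carbon unit of serine in mitochondria, GPT2 (-1.44), which makes alanine, and PCK2 (-2.34), the mitochondrial phosphoenolpyruvate carboxykinase, fell too.

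CHAC1, which degrades glutathione, had 27.6 RPKM with RPL27 siRNA against 151 RPKM with NC in HCT116, and 20.2 RPKM with RPL27 siRNA against 212 RPKM with NC in HT29, and fell by 2.70 (SE 0.36; adjusted p = 0.029). NUPR1, a stress-responsive chromatin protein, is counted among the 10, but it passed the filter on low levels only through the NC libraries, so its call is no support for the list. It had 0.80 RPKM with RPL27 siRNA against 9.03 RPKM with NC in HCT116 and 0.73 RPKM with RPL27 siRNA against 16.9 RPKM with NC in HT29. ATF4 mRNA had 612 RPKM with RPL27 siRNA against 756 RPKM with NC in HCT116, and 554 RPKM with RPL27 siRNA against 1060 RPKM with NC in HT29, and did not pass (-0.59, SE 0.20; adjusted p = 0.18). DDIT3, a death-promoting target of ATF4, stood 0.48 lower in HCT116 and 1.18 lower in HT29 (0.70 with the length trend removed), also without passing (adjusted p = 0.22). Not all members went the same way: PPP1R15A, a phosphatase subunit that restores translation, stood 1.30 and 0.76 higher, and the amino acid transporter SLC7A11 stood 1.08 lower in HCT116 but 2.99 higher in HT29 (1.59 with the length trend removed). The medians were -0.80 in HCT116 and -0.86 in HT29.

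ATF4 binds composite elements of the form TGATGNAA. That sequence, on either strand, lay in the 250 bases before the start of 6 of the 30 list members found in the promoter table (20%), against 2.56% of the tested genes and 3.89% of all genes of the table. The 6 were ASNS, CHAC1, JDP2, ATF3, CEBPG and SLC1A5. The element was not particular to this list. It lay in 3 of 16 promoters of cytosolic aminoacyl-tRNA synthetases (18.8%) and in 2 of 14 of p53 targets of arrest (14.3%). Those 2 were PLK3 and PTP4A1, which rose. It lay in 1 of 41 promoters of the G2/M list and 0 of 45 of the replication list. ASNS and CHAC1 are shown because they held the element and fell by over 2 log2 units (RefSeq, GRCh38.p14, 100 bases on the strand of the gene, 5′ to 3′, with TGATGNAA or its reverse complement in capitals). The ASNS window is chr7:97872427-97872526 on the minus strand and the CHAC1 window chr15:40953221-40953320 on the plus strand.
ASNS: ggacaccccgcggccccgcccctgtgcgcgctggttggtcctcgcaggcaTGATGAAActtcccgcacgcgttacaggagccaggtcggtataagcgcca
CHAC1: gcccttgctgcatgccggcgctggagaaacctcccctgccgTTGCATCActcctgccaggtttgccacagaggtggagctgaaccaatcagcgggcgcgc
The element begins 68 bases before the start in ASNS, and in CHAC1 it lies on the opposite strand 209 bases before the start. Of the other 4 members of the ATF4 list with the element, JDP2 stood 1.62 lower in HCT116 and 1.91 lower in HT29. ATF3, CEBPG and SLC1A5 lay between -0.23 and -0.64 in both lines as deposited, with CEBPG at -0.73 in HT29 once the length trend was removed.

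Cytosolic aminoacyl-tRNA synthetases, which load amino acids onto tRNAs, moved in part. QARS, the glutaminyl-tRNA synthetase, had 1326 RPKM with RPL27 siRNA against 3184 RPKM with NC in HCT116, and 1107 RPKM with RPL27 siRNA against 3582 RPKM with NC in HT29, and fell by 1.52 (SE 0.16; adjusted p = 0.026). Of 20 synthetases 6 fell (beside 1.05% of all genes) and 0 rose. The others that fell were GARS (-1.16), CARS (-1.15), YARS (-0.94), AARS (-0.93) and WARS (-0.90), while FARSA, HARS and RARS lay between -0.12 and 0.52 in both lines. The medians were -0.35 in HCT116 and -0.20 in HT29.

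Of 20 genes of the unfolded protein response, 12 stood lower in both lines (beside 23.2% of all genes) and 1 fell (beside 1.05%), HERPUD1, a component of protein degradation at the endoplasmic reticulum (-1.17, SE 0.19; adjusted p = 0.046). HERPUD1 had 211 RPKM with RPL27 siRNA against 555 RPKM with NC in HCT116, and 235 RPKM with RPL27 siRNA against 503 RPKM with NC in HT29. The chaperones HSPA5 and HSP90B1 stood 0.38 and 0.48 lower in HCT116 and 0.46 and 0.77 lower in HT29 (0.97 and 0.99 with the length trend removed), without passing. Genes of cholesterol synthesis and uptake were mixed: of 24, 10 stood lower in both lines, 2 higher in both and 12 differed in sign. Of this list 2 fell, beside 1.05% of all genes. These were the sterol isomerase EBP (-1.49, SE 0.17, adjusted p = 0.027) and the farnesyl diphosphate synthase FDPS (-0.91, SE 0.15, adjusted p = 0.043). EBP had 125 RPKM with RPL27 siRNA against 351 RPKM with NC in HCT116, and 152 RPKM with RPL27 siRNA against 490 RPKM with NC in HT29.

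Most ribosomal proteins differed in sign between the lines. Of 47 large subunit proteins, RPL27 included, 40 stood higher with RPL27 siRNA in HCT116, and all 47 stood lower in HT29. Of 32 small subunit proteins 30 stood higher in HCT116 and all 32 lower in HT29. Of all 14281 genes tested, 7315 stood higher in HCT116 and 6060 lower in HT29. The medians were 0.27 and 0.29 in HCT116 and -0.90 and -1.03 in HT29, or -0.56 and -0.54 in HT29 with the length trend removed. Most of these transcripts are short, where the HT29 NC library stands apart; its part in the result was not tested beyond the removal of the trend. RPL27 was the single member that fell. RPL12 had 14087 RPKM with RPL27 siRNA against 20006 RPKM with NC in HCT116, and 13408 RPKM with RPL27 siRNA against 39973 RPKM with NC in HT29, and with RPL10A and RPL3 it stood lower in both lines without passing (adjusted p = 0.062, 0.054 and 0.13). Reads of these genes can be shared with their many pseudogenes. Among the paralogs, RPL22L1 stood 1.26 lower in HCT116 and 2.75 lower in HT29 (adjusted p = 0.066). Of 55 ribosome biogenesis factors 0 passed the test. RRP12, which serves export of ribosomal subunits, stood 1.17 and 0.65 higher, and NOLC1, a nucleolar phosphoprotein, 0.62 and 1.30 higher (adjusted p = 0.051). Their HT29 differences were 0.04 and 0.78 with the length trend removed.

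**Figure D3:**
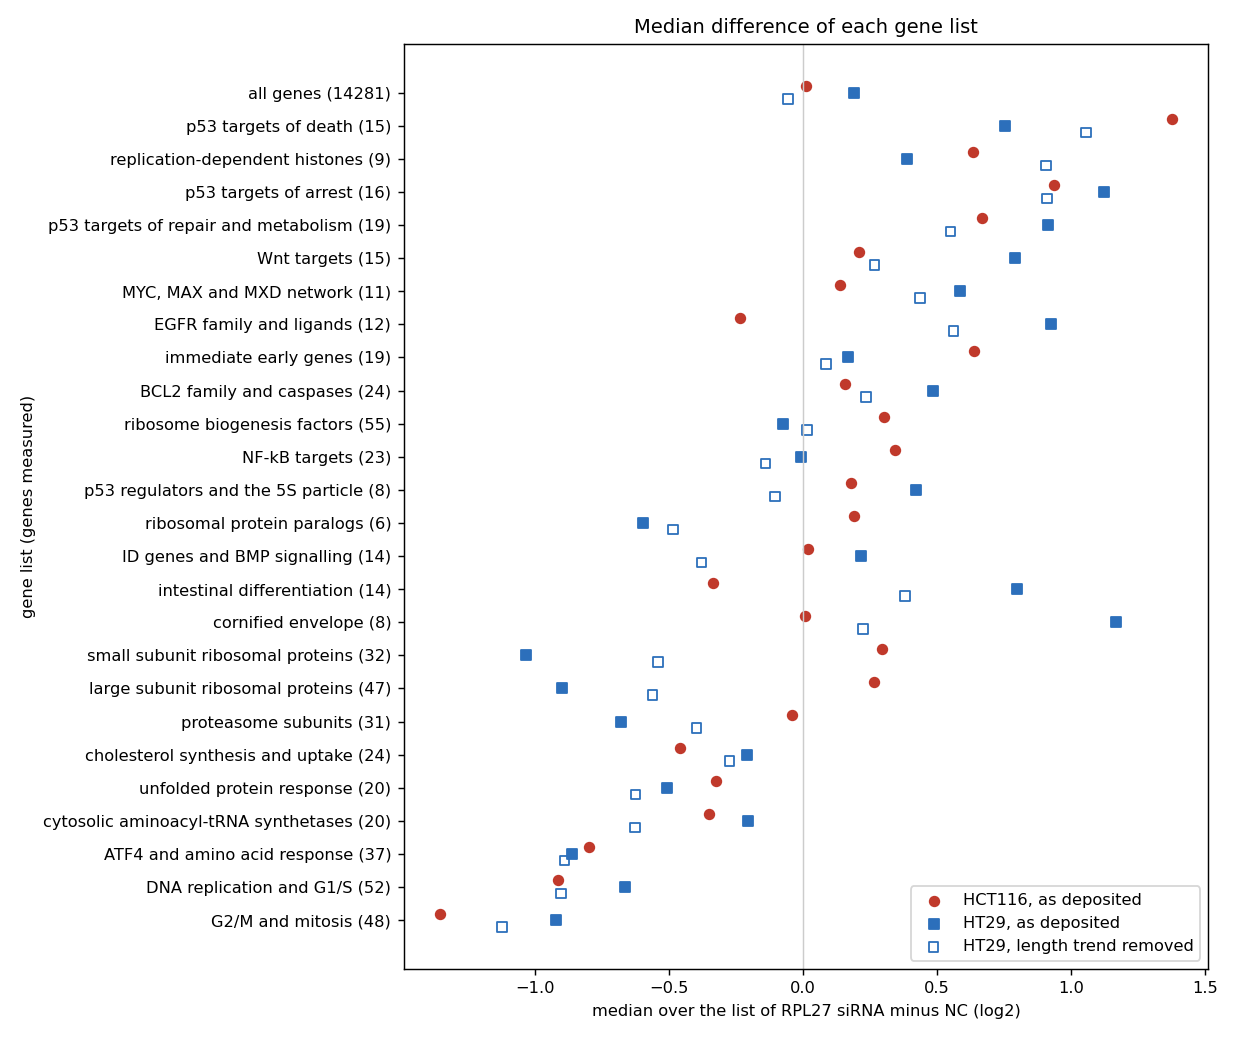
Median difference (RPL27 siRNA minus NC, log2, x axis) over the measured members of each gene list (y axis, number measured in brackets) for HCT116 and HT29 as deposited and HT29 with the length trend removed. The lists of p53 targets lie between 0.55 and 1.38, and the G2/M, DNA replication and ATF4 lists between -0.66 and -1.35, whereas ribosomal proteins of the large and small subunit lie at 0.27 and 0.29 in HCT116 and at -0.90 and -1.03 in HT29 as deposited.

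Few members of the remaining lists passed, beside 0.55% of all genes that rose and 1.05% that fell. In the MYC, MAX and MXD network MXD1, a repressor that competes with MYC for MAX, had 63.4 RPKM with RPL27 siRNA against 7.48 RPKM with NC in HCT116, and 101 RPKM with RPL27 siRNA against 10.8 RPKM with NC in HT29, and rose by 2.57 (SE 0.38; adjusted p = 0.034). MYC stood 0.81 and 0.18 higher (adjusted p = 0.33). In the EGF receptor family the feedback inhibitor ERRFI1 rose by 1.39 (SE 0.20; adjusted p = 0.034), with 1384 RPKM with RPL27 siRNA against 651 RPKM with NC in HCT116. EGFR differed by -0.27 in HCT116 and 3.83 in HT29 (2.43 with the length trend removed). Among 19 immediate early genes the AP-1 subunit FOSL1 rose by 1.28 (SE 0.22; adjusted p = 0.049), and 10 stood higher in both lines (beside 32.2% of all genes). Of the 23 NF-kB targets 0 passed, and RELA and NFKBIA differed by 0.35 and -0.05 in HCT116 and by 0.95 and -0.44 in HT29, or 0.78 and -0.17 in HT29 with the length trend removed.

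Of the ID genes, inhibitors of basic helix-loop-helix factors, ID2 stood 0.79 lower in HCT116 and 1.27 lower in HT29 (adjusted p = 0.061), and ID1 0.06 and 1.16 lower (0.66 lower in HT29 with the length trend removed; adjusted p = 0.39). None of the 14 members measured with BMP signalling passed, nor did any of the 24 members of the BCL2 family and caspases, the 15 Wnt targets, the 31 proteasome subunits or the 9 histones. BCL2L1, an inhibitor of apoptosis, stood 0.76 and 0.86 higher (adjusted p = 0.072), and CCND1, cyclin D1, 0.54 and 1.56 higher (0.92 in HT29 with the length trend removed; adjusted p = 0.071). Proteasome subunits had medians of -0.04 in HCT116 and -0.68 in HT29, or -0.40 in HT29 with the length trend removed. In the intestinal differentiation list MGAM, a brush border glucosidase, was the 1 member called. It passed the filter on low levels only through the RPL27 siRNA libraries, at 17.9 RPKM with RPL27 siRNA in HCT116, where NC was listed at 0, and at 18.7 RPKM with RPL27 siRNA against 0.093 RPKM with NC in HT29.

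Across all genes, those with the largest difference in the line where it was smaller included SCEL, ZNF19 and MXD1 upward, and were led downward by IZUMO4, TMSB15A, CHAC1, PCK2 and C16orf95. SCEL, the cornified envelope protein sciellin, had 1667 RPKM with RPL27 siRNA against 154 RPKM with NC in HT29, and 8.53 RPKM with RPL27 siRNA in HCT116, where NC was listed at 0, and rose by 3.21 (SE 0.29; adjusted p = 0.019). The 8.53 RPKM of HCT116 are 0.51% of the level in HT29 with RPL27 siRNA. The 2 genes over 500 RPKM in both HT29 libraries and under 5 RPKM in HCT116 NC stood in the HCT116 RPL27 siRNA library at a median of 1.16% of their HT29 level, and the part of this in the HCT116 value of SCEL was not tested.

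Of the other genes highest in both lines, ZNF19 (2.87), the meiotic recombination gene MSH4 (2.71), the secreted neuropeptide precursor VGF (2.63) and the lipid transporter ABCA12 (2.02) also rose. NRP1, a receptor for semaphorins and VEGF, had 177 RPKM with RPL27 siRNA against 32.2 RPKM with NC in HCT116, and 241 RPKM with RPL27 siRNA against 20.7 RPKM with NC in HT29, without passing (adjusted p = 0.064). TTLL13 had no matched length, and ANK1 did not pass (adjusted p = 0.13). Of the 12 genes named downward, TMSB15A, an actin-binding thymosin, fell by 2.52 (SE 0.35, adjusted p = 0.032). CHAC1, PCK2, ASNS and the axonemal dynein DNAH6 (-2.96, adjusted p = 0.038) fell too. DNAH6, with a matched transcript of 12795 nt, differed by -2.26 in HCT116 and -2.09 in HT29 as deposited. Its HT29 difference became -3.64 with the length trend removed. PIMREG, a mitotic protein listed as FAM64A, fell by 1.86 (SE 0.32; adjusted p = 0.0496), just inside the threshold. IZUMO4, LGALS9, SULT1C2 and PILRA stood at least 2.20 lower in both lines without passing (adjusted p = 0.066 to 0.073), and C16orf95 and TNNT2, cardiac troponin T, did not pass either (adjusted p = 0.15 and 0.14).

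**Figure D4:**
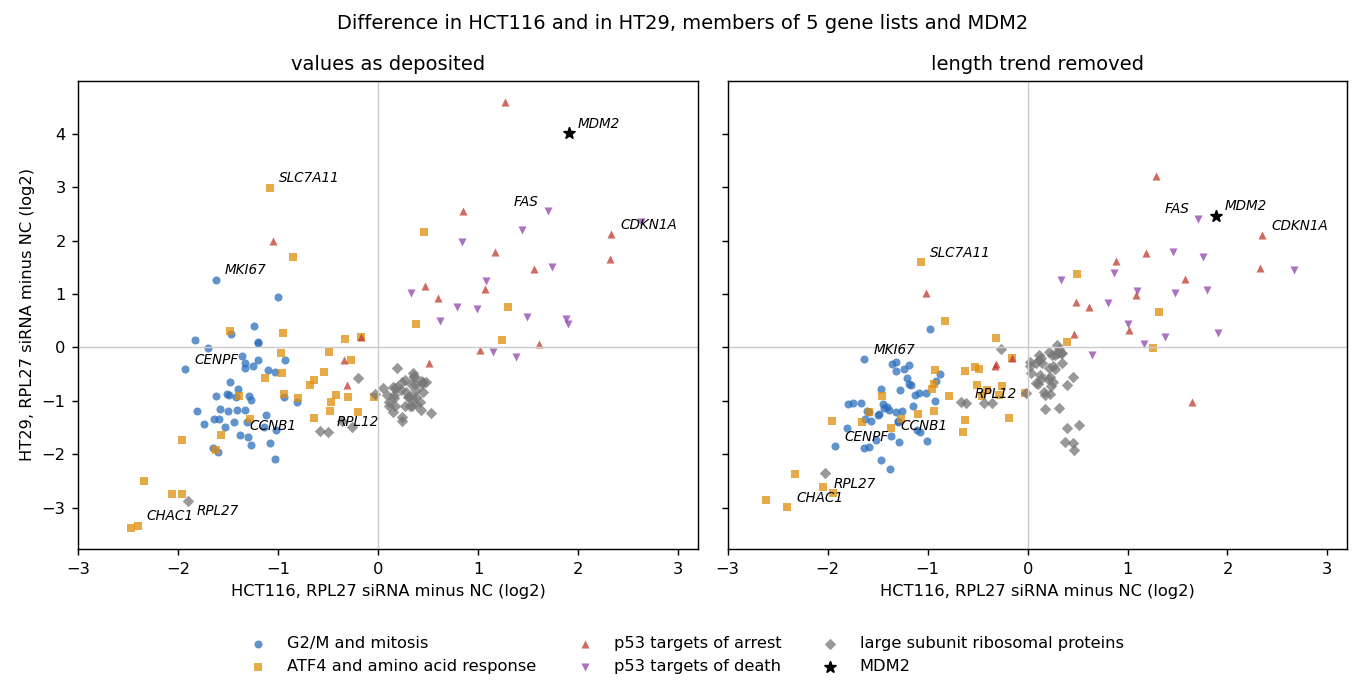
Difference (RPL27 siRNA minus NC, log2) in HCT116 (x axis) against HT29 (y axis) for members of 5 gene lists and MDM2, as deposited and with the length trend removed. As deposited, 41 of 48 G2/M and 27 of 37 ATF4 members lie at the lower left and 10 of 16 and 13 of 15 p53 targets of arrest and death at the upper right, while 40 of 47 large subunit ribosomal proteins lie right of 0 in HCT116 and all 47 below 0 in HT29.

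Agreement of the lines over all genes was limited. Of the genes tested 55.4% had the same sign in both lines, and Pearson's r of the differences was 0.20 over 14281 genes, as a description of 2 lines measured with 1 library a group. Removal of the length trend gave 58.2% and 0.24. HCT116 had 805 genes at least 1 log2 unit higher and 1013 lower with RPL27 siRNA, and HT29 had 3319 and 1438. The 291 genes past 1 log2 unit upward in both lines were 36.1% of those of HCT116 and 8.77% of those of HT29, and the 298 downward were 29.4% and 20.7%.

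Markers matched an epithelial origin in part. EPCAM, KRT8, KRT18 and KRT19 had over 2000 RPKM in all 4 libraries, whereas VIL1 and CEACAM5 were under 1 RPKM in HCT116, with VIL1 at 373 RPKM with RPL27 siRNA and 358 RPKM with NC in HT29. Some markers of other cells were near 0 in all 4 libraries. The highest values were 1.87 RPKM for PTPRC of leukocytes, 0.29 RPKM for PECAM1 of endothelium and 0.044 RPKM for DCN of fibroblasts. Other members of the same lists were not near 0, as the sums show. Summed over the 10 leukocyte markers the level was 169 RPKM with RPL27 siRNA against 126 RPKM with NC in HCT116, and 2494 RPKM with RPL27 siRNA against 1955 RPKM with NC in HT29, where LYZ gave 2302 and 1844 RPKM. The sums were 388 against 381 RPKM and 416 against 337 RPKM for the 9 fibroblast markers, and 5.98 against 27.1 RPKM and 71.7 against 42.1 RPKM for the 7 endothelial markers. Of the measured members of these 3 lists 0 passed the test.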

How the data were processed

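RPKM values per gene were deposited by the authors, 1 library for each line and siRNA. Per the submitters' processing notes, CASAVA 1.8.2, TopHat2 2.0.9 and hg19 were used; the labels do not say how reads were turned into RPKM. The RPKM were compared as log2(RPKM + 1) after a filter on the mean of the 4 libraries (at least 1 RPKM). Differences were tested with limma 3.58.1 (R 4.3.3, mean-variance trend) on all 8 libraries with terms for line and siRNA, and p-values were adjusted by Benjamini-Hochberg over all genes tested; every adjusted p given after the first for RPL27 is from the fit with the length trend removed. That trend was removed with a spline (5 degrees of freedom) of each library's deviation from the mean of the 8 libraries on log2 transcript length. Lengths were matched for 18900 of 19124 genes, 554 of them by symbol, from a current annotation, and may differ from the authors' transcripts. Nothing in the labels says how separate the cultures were, so p-values measure the spread between these libraries. The fit was tested on simulated data, with independent noise around each gene's mean and no line effect or trend with length. That test does not show how the fit behaves with a library such as HT29 NC.

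Named genes were RPL27, fixed regulators, the 12 genes highest and 12 lowest in the line with the smaller difference (mean of at least 10 RPKM), the 5 leading and all called members of each list, and 5 genes each way that opposed between lines. Some genes this rule takes are not reported here. Other genes were named after their values were seen. The members and lists were chosen with earlier results of these data known. Alternatives covered the pseudocount, filter, scaling, length trend, variance model, line term, 4 libraries alone and each library left out. Promoters are from RefSeq (GRCh38.p14).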

Additional observations from a re-analysis of the deposited data

Results flagged for a closer look

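The medians of several lists had opposite signs in the 2 lines. These differences between lines were not tested, since each line has 1 library per siRNA. As deposited, the HT29 medians of ribosome biogenesis factors and NF-kB targets lay near 0, at -0.074 and -0.007. The median difference in HCT116 minus that in HT29 was 1.16 for large subunit ribosomal proteins, 1.33 for small subunit ribosomal proteins, 0.79 for ribosomal protein paralogs, 0.38 for ribosome biogenesis factors and 0.35 for NF-kB targets. It was -1.16 for the EGFR family and ligands, -1.14 for intestinal differentiation and -2.54 for 3 endothelial markers. With the length trend removed the HT29 medians were -0.56, -0.54, -0.48, 0.02 and -0.14 for the first 5 lists, so that biogenesis factors no longer opposed the 0.30 of HCT116. They were 0.56, 0.38 and 0.04 for the EGFR, intestinal and endothelial lists.

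Among single genes with opposite signs, the HCT116 difference minus the HT29 difference was 6.97 for ZNF705B, 4.46 for RND2, 3.67 for CARD9, 2.85 for IFI27L2 and 2.64 for FXYD3. It was -6.91 for FAM153B, -3.58 for ZNF705G, -4.13 for FAM22G, -3.47 for ALPK3 and -3.73 for SEMA3D. None of these differences was tested. Removal of the length trend gave an HT29 difference of 0.17 for ALPK3, against 1.64 as deposited, 1.04 for SEMA3D, against 2.09, -0.97 for IFI27L2, against -1.46, and -0.76 for FXYD3, against -1.30. IFI27L2 had 224 RPKM with RPL27 siRNA against 85.2 RPKM with NC in HCT116, and 154 RPKM with RPL27 siRNA against 427 RPKM with NC in HT29. FXYD3, a regulator of the sodium pump, had 110 RPKM with RPL27 siRNA against 42.9 RPKM with NC in HCT116, and 122 RPKM with RPL27 siRNA against 303 RPKM with NC in HT29.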

How the results depend on the processing

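With the values as deposited, limma called 0 genes, against 1 after quantile normalization, 42 on the 4 libraries alone, 227 with the length trend removed and 321 with that and a mean of at least 5 RPKM (an alternative chosen after seeing the data, as were the other combinations with the length trend). Leaving out 1 library gave 0 to 6392 calls as deposited and 0 to 4748 with the length trend removed (1388 without HT29 NC). Genes 1 log2 unit apart in both lines numbered 291 higher and 298 lower, against 140 and 161 with a pseudocount of 5, 1223 and 1017 at 0.5 log2 units and 86 and 81 at 1.5. List medians over both lines moved to 0.62 (median-centring) and 0.68 (length trend removed) for p53 targets of arrest, to 0.69 (quantile), 0.67 (median-centring) and 0.68 (length) for p53 targets of repair, to -0.97 (median-centring) for replication, and to -0.78 (quantile), -0.89 (median-centring) and -0.75 (length) for ATF4. Without 1 of the 4 libraries a single line is left, so no range of the median over both lines can be given. The medians of HCT116 alone and HT29 alone were 0.94 and 1.12 for arrest, 0.67 and 0.91 for repair, and -0.80 and -0.86 for ATF4. The RPL27 difference was -2.13 (quantile), -2.19 (length), -2.39 (4 libraries) and -2.12 (length, at least 5 RPKM), and -2.88 to -1.90 as deposited or -2.38 to -2.00 with the length trend removed without 1 library. RPL11 changed sign, to 0.015 (quantile), 0.031 (length, also on the 4 libraries or without any RPL9 or RPL17 siRNA library) and 0.053 (length, at least 5 RPKM). Without 1 library RPL11 ranged over -0.75 to 0.35 and, with the length trend removed, -0.26 to 0.32; 0.16 was the value without HT29 RPL27 siRNA. Likewise RPL5 ranged over -0.71 to 0.11 and -0.22 to 0.089 (0.022 without HT29 RPL27 siRNA), and NFKBIA over -0.53 to 0.044 and -0.25 to 0.049. In fits without 1 of the 4 compared libraries, the RPL9 and RPL17 siRNA libraries also enter these estimates, which are then not differences within 1 line. The causes were not tested. The line term pairs RPL27 siRNA with NC within each line; without it limma called 0 genes, with an unadjusted p under 0.05 for 1660. With 1 library per line and siRNA and 3 residual degrees of freedom, a p that misses the threshold does not show that values did not differ.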

Other observations

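Genes outside the lists that passed with the length trend removed numbered 59 higher and 86 lower; those given here were chosen after their values were seen. HMGB2, a chromatin protein, had 769 RPKM with RPL27 siRNA against 2762 RPKM with NC in HCT116, and 698 RPKM with RPL27 siRNA against 3051 RPKM with NC in HT29, and fell by 1.77. STMN1, which destabilises microtubules, fell by 1.57, the histone variant H2AZ1 (listed as H2AFZ) by 1.49, the nuclear lamin LMNB1 by 1.23 and the nuclear import receptor KPNA2 by 1.08. Others that fell were the isocitrate dehydrogenases IDH1 and IDH2, by 1.31 and 1.46, the pyruvate kinase PKM, by 1.03, and UQCRC2, a subunit of respiratory complex III, by 1.29.

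CPA4, a secreted carboxypeptidase, had 913 RPKM with RPL27 siRNA against 258 RPKM with NC in HCT116, and 617 RPKM with RPL27 siRNA against 187 RPKM with NC in HT29, and rose by 1.68. The secreted proteases KLK6 and KLK7 rose by 1.74 and 1.74, the tropomyosin TPM4 by 1.43, the integrin subunit ITGA3 by 0.96 and the autophagy receptor SQSTM1 by 1.13. TFPI, an inhibitor of coagulation, rose by 1.22.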
